A study of Mus musculus with 14 samples.

Results

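The kinesin motor genes were taken as every gene row whose symbol is Kif followed by a number and at most one letter from a to c. This gave 37 genes of the 41053 gene rows in each of 2 count tables. Each was assigned by its known role to a class: 12 mitotic kinesins, 15 transport kinesins and 10 others. The data were RNA sequencing libraries from mouse spleen cells on the C57BL/6 strain, 14 in all. Germinal centre (GC) B cells, which multiply in lymphoid follicles after meeting antigen, came from mice labelled TET2 Wild-Type (WT, 3 libraries) or TET2 Knock-Out (KO, 4 libraries). Lymphoma B cells carried either a short hairpin RNA against Tet2 (shTet2, genotype TET2 Knock-Down, 2 libraries) or were control lymphoma cells with the genotype TET2 Wild-Type (5 libraries). The TET2 protein oxidises the methyl group of methylated cytosines. Neither the deleted part of Tet2, nor the origin of the lymphoma, nor the age and sex of the mice is given in the sources used here, and no label states that the libraries of a group came from separate animals. The p-values therefore measure only the spread between these libraries, which may be technical.

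Kinesins are motor proteins that use ATP to move along microtubules or to take microtubule ends apart. Mitotic kinesins build the spindle, move chromosomes and complete cell division, and their genes are switched on as cells pass towards mitosis. Transport kinesins carry vesicles, organelles and RNA through the cytoplasm at any stage of the cell cycle, and several are best known from neurons and cilia. GC B cells divide faster than most other cells of the body.

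Levels are given as CPM, gene counts divided by library size with scaling factors set jointly over all 14 libraries. Values are listed in the order of the replicate numbers in the titles: 1, 3 and 4 for WT, 2, 3, 4 and 5 for KO, 1 to 5 for the control lymphoma, and 1 and 2 for shTet2. Fold changes are log2 values with their standard error (SE) from edgeR's quasi-likelihood test, and a gene was called where its Benjamini-Hochberg adjusted p over all genes tested was under 0.05. The GC B-cell libraries held 27191862 to 30434184 counts, of which 54153 to 75119 fell on kinesins. The control lymphoma libraries held 6691167 to 18598386 counts and the shTet2 libraries 14741588 and 9386084. Rows taken to hold ribosomal or other abundant structural RNA took 57.5 to 80.7% of the control lymphoma counts and 54.0 and 44.97% of the shTet2 counts, so these shares did not overlap, against 0.370 to 1.32% in GC B cells. Kinesins received 2101 to 9182 counts in control lymphoma and 11317 and 8578 in shTet2 libraries. All 7 B-cell markers were present in every group, with summed levels of 5528 to 5930 CPM in GC B cells and 3798 to 4258 CPM in lymphoma. The 7 GC B-cell markers summed to 1135 to 1386 CPM in GC B cells, 175 to 217 CPM in control lymphoma and 228 and 274 CPM in shTet2 lymphoma. The 4 Y-linked genes were at 0 in every lymphoma library and were higher in KO than in WT (4 of 4 called). Tet2 itself stood at 8.46, 7.53 and 8.95 CPM in WT, 7.79, 9.53, 8.69 and 9.42 in KO, 105, 97.2, 90.1, 89.01 and 89.998 in control lymphoma and 86.04 and 79.4 in shTet2 lymphoma. Its log2 differences of 0.04 (SE 0.13) and -0.21 (SE 0.10) did not pass the edgeR test (adjusted p = 0.909 and 0.295). In shTet2 against control lymphoma all 3 Tet genes had negative differences, from -1.21 to -0.21, that of Tet2 being the smallest. EdgeR called 0 of the 3, and 2 had an unadjusted p under 0.05. Counts over all exons cannot show a deletion of unknown extent, so KO and shTet2 are used as the labels give them.

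Part of the family was at or near the limit of detection. Kif2b, Kif6, Kif12 and Kif21a had 0 counts in all 14 libraries, and Kif1a, Kif5a, Kif17, Kif26a, Kif26b and Kif27 had under 100 counts in all of them together. Of the 37 genes, 29 passed the filter on low counts for KO against WT, 25 for shTet2 against control lymphoma and 28 in the model of all groups. Counting took no account of strand, so reads in exons shared with a gene on the other strand cannot be assigned to one of them. Such exons made up 33.2% of the exon length of Kif20a (Cdc23), 38.2% of Kif3c (1110002L01Rik), 19.95% of Kif7 (9330171B17Rik and Ticrr), 17.4% of Kif2a (Dimt1) and 15.1% of Kif4 (Pdzd11), and the values of these genes are less certain.

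The kinesin complement of GC B cells was mitotic and that of control lymphoma was made up largely of transport kinesins. After scaling by exon length, mitotic kinesins made up 82.7, 83.4 and 83.5% of all kinesin counts in the WT libraries and 86.2, 81.7, 83.2 and 81.8% in the KO libraries. In control lymphoma they made up 17.0, 12.4, 14.0, 18.9 and 19.1%. Both shTet2 libraries lay between these groups, at 31.8 and 45.8%, and overlapped neither. Their transport shares were 59.4 and 46.7%. Transport kinesins took 13.6% ± 0.373 (SD, n = 3) in WT, 13.5% ± 1.96 (n = 4) in KO, 73.1% ± 1.78 (n = 5) in control lymphoma and 53.0% ± 9.02 (n = 2) in shTet2 lymphoma. The summed mitotic level was 263 ± 23.4 CPM per kilobase in WT and 17.5 ± 4.35 in control lymphoma, whereas the summed transport level was 43.0 ± 4.41 and 77.8 ± 5.27. In bulk samples, fewer cells of a kind and less RNA per cell cannot be told apart.

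**Figure D1:**
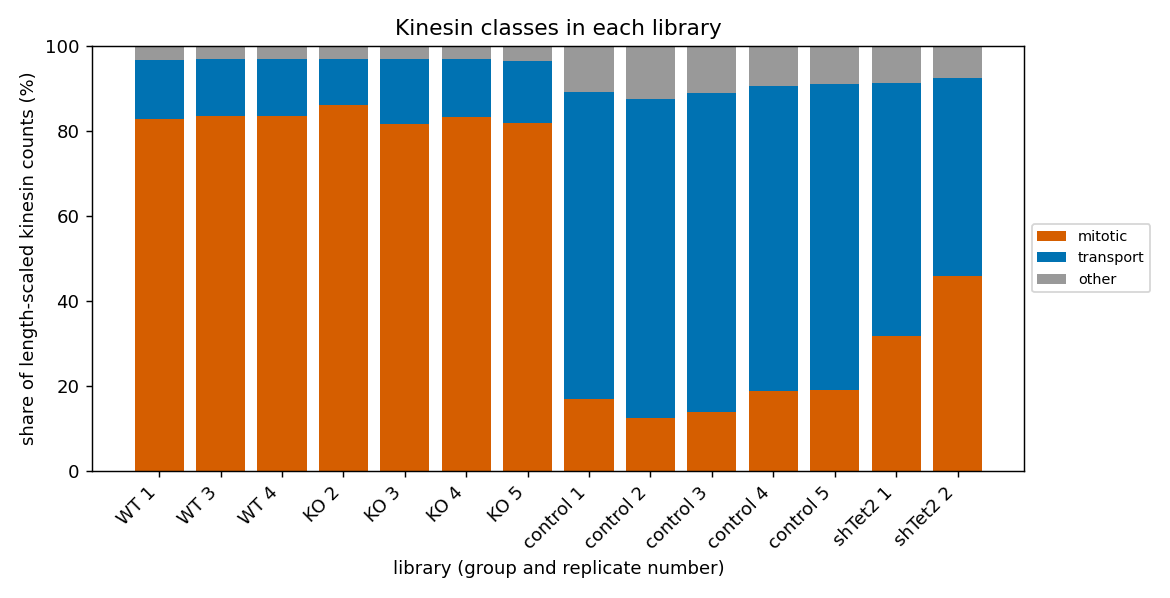
Share of length-scaled kinesin counts (%) taken by mitotic, transport and other kinesins in each of the 14 libraries, named by group and replicate number. Mitotic kinesins take 81.7 to 86.2% in the 7 GC B-cell libraries, 12.4 to 19.1% in the 5 control lymphoma libraries, and 31.8 and 45.8% in the shTet2 libraries.

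Ranked by length-scaled level, the order in WT GC B cells began with Kif22 (64.6 ± 2.92 CPM per kilobase, SD, n = 3), Kif23 (43.4 ± 3.04) and Kif11 (40.8 ± 6.08), of which Kif23 and Kif11 overlapped. The same genes led in KO, at 69.97 ± 7.15, 48.8 ± 3.40 and 42.2 ± 3.82 CPM per kilobase (n = 4). In control lymphoma the order began with Kif21b (29.2 ± 3.15, n = 5), Kif5b (19.2 ± 0.990) and Kif13b (7.93 ± 0.836), none of which overlapped the next gene in rank. Kif21b and Kif5b also led in shTet2 lymphoma (23.3 ± 6.17 and 18.5 ± 1.56, n = 2), with overlapping values, and Kif11 came next at 10.7 ± 4.31 CPM per kilobase, its values overlapping those of the gene after it.

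The comparison of control lymphoma with WT GC B cells sets the cell states labelled TET2 Wild-Type side by side. The Tet2 level itself was higher in control lymphoma (log2 3.50, SE 0.11). All 11 mitotic kinesins tested fell, with a median log2 difference of -3.94 and a range from -5.40 to -0.91. The background was high: 80.7% of the 15441 genes tested were called, 40.2% higher and 40.4% lower, with a median of -0.03 that became 0.11 with median-of-ratios scaling. Groups did not overlap for 11 of 11 mitotic kinesins, against 38.5% of genes tested lying wholly lower. Transport kinesins went both ways, with 7 higher and 3 lower of 11. Cell type cannot be told apart from the set of libraries, their depth and their structural RNA share, which differed in the same way.

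Promoter sequences were read for motifs that the grouping did not use, and the difference between classes was not tested. Genes of the late cell cycle often carry a CCAAT box, bound by the factor NF-Y, and a CHR element (TTTGAA), bound by complexes that contain MuvB proteins, such as DREAM. Sequences came from RefSeq (GRCm38.p6), with 35 promoters for 31 of the 37 members. No entry was matched for Kif5a, Kif5b, Kif13b, Kif19a, Kif20a and Kif21b. Within 100 bases before the start, searched on both strands, CCAAT was present for 7 of 11 mitotic, 3 of 11 transport and 3 of 9 other kinesins and in 18.9% of all 32851 promoters. TTTGAA was present for 3 of 11, 1 of 11 and 2 of 9, and in 5.77% of all. The motifs can overlap by at most 1 base, and both were present for 2 mitotic kinesins (Kif11 and Kif22), 0 transport and 1 other kinesin, against 1.06% of all promoters. Kif18a and Kif20b held neither motif, and Kif2b, with 0 counts, is among the 7 with CCAAT. A match is a description of the letters, not evidence of binding. Below are the last 100 bases before the annotated start, 5′ to 3′ on the strand of the gene, for the mitotic kinesins Kif11 and Kif22 with both motifs, Kif15 with TTTGAA, Kif18b with CCAAT, and for contrast the transport kinesins Kif1b, at the most upstream of its listed starts, and Kif1c. Capitals mark either motif, as CCAAT or its complement ATTGG, and TTTGAA or its complement TTCAAA.
Kif11 (chr19:37376282-37376381, + strand): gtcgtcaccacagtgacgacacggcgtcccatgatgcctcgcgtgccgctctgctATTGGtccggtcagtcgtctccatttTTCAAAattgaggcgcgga
Kif22 (chr7:127042421-127042520, - strand): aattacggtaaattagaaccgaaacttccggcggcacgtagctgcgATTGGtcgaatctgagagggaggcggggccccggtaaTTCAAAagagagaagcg
Kif15 (chr9:122950981-122951080, + strand): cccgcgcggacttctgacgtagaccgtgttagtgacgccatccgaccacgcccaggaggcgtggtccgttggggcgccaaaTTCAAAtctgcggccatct
Kif18b (chr11:102925125-102925224, - strand): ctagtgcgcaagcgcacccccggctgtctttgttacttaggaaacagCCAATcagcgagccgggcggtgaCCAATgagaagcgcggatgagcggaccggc
Kif1b (chr4:149307734-149307833, - strand): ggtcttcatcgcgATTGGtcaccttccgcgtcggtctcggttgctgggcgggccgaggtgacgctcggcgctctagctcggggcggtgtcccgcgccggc
Kif1c (chr11:70700448-70700547, + strand): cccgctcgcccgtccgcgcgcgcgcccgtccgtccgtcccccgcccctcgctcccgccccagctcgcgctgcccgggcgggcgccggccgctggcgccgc

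The motors that set up a bipolar spindle were among the most abundant. Kif11 (chr19:37376403-37421859, + strand), which pushes the spindle poles apart, stood at 212, 215 and 163 CPM in WT and 226, 206, 199 and 182 in KO. In lymphoma it stood at 11.9, 8.40, 8.92, 16.6 and 16.6 CPM in the control and 36.9 and 66.3 in the shTet2 libraries. The GC B-cell groups overlapped, and both shTet2 libraries lay above every control lymphoma library and below every GC B-cell library. Kif15 (chr9:122951081-123018725, + strand), which can hold poles apart alongside Kif11, stood at 96.6, 91.8 and 73.4 CPM in WT and 100.4, 98.8, 100.1 and 90.7 in KO. Its lymphoma levels were 7.61, 3.29, 6.55, 8.61 and 11.9 CPM in the control and 21.8 and 33.3 in shTet2, in the same order of groups. Both promoters hold TTTGAA 19 bases before the RefSeq start, which for Kif11 lies upstream of the start of the counted gene row given here.

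Chromokinesins bind chromosome arms. Kif22 (chr7:127027732-127042420, - strand), which pushes arms towards the spindle equator, stood at 129.97, 140.2 and 129.6 CPM in WT and 164, 138, 147 and 129 in KO. It was far lower in lymphoma, at 4.68, 0.731, 3.28, 4.05 and 6.41 CPM in the control and 9.23 and 16.4 in shTet2 libraries. Control replicate 2, the library with the highest structural RNA share (80.7%) and 1525883 other counts, was the lowest. Kif4 (chrX:100625737-100727214, + strand), which acts in chromosome condensation and in the spindle midzone, stood at 93.1, 97.4 and 78.3 CPM in WT and 101, 94.2, 104 and 80.2 in KO. In lymphoma it stood at 4.68, 2.56, 2.73, 6.66 and 4.94 CPM in the control and 15.2 and 22.7 in shTet2, and the lymphoma groups did not overlap.

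Kinesins that act on microtubule ends included the member with the deepest fall. Kif2c (chr4:117159639-117182639, - strand), which takes apart microtubules at kinetochores, stood at 73.7, 80.03 and 64.4 CPM in WT and 79.03, 75.2, 75.7 and 65.6 in KO. It stood at 1.56, 0.731, 0.455, 2.48 and 3.20 CPM in control lymphoma and 7.52 and 10.9 in shTet2 lymphoma, so that both shTet2 libraries were above all controls. Kif18b (chr11:102905529-102925124, - strand), which shortens astral microtubules together with Kif2c, stood at 84.7, 86.8 and 77.7 CPM in WT and 100.01, 98.6, 93.1 and 93.5 in KO. Its lymphoma levels were 3.51, 1.46, 2.46, 3.002 and 4.54 CPM in the control and 10.5 and 14.3 in shTet2. Kif18a (chr2:109280738-109341747, + strand), which damps the movements of aligned chromosomes, differed least between the groups. It stood at 27.4, 26.7 and 24.5 CPM in WT, 32.2, 26.96, 30.5 and 27.6 in KO, 15.8, 16.1, 13.8, 14.4 and 10.5 in control lymphoma and 14.95 and 17.95 in shTet2 lymphoma. Here the shTet2 libraries overlapped the controls.

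Kinesins of the midzone and of cell separation followed the larger group. Kif23 (chr9:61917280-61946799, - strand), the motor of the centralspindlin complex, stood at 153, 156 and 137 CPM in WT and 172, 173, 173 and 149.6 in KO. In lymphoma it stood at 9.17, 6.21, 6.64, 8.74 and 8.95 CPM in the control and 16.7 and 27.9 in shTet2. Kif20a, which carries the chromosomal passenger complex to the midzone, stood at 93.1, 109.5 and 77.02 CPM in WT and 87.8, 93.4, 103 and 84.9 in KO. It stood at 5.46, 3.65, 6.28, 6.92 and 8.81 CPM in control and 15.8 and 23.6 in shTet2 lymphoma. For both genes the shTet2 libraries lay between the groups without overlap. Kif14 (chr1:136466343-136531511, + strand), which places citron kinase at the midbody, stood at 32.1, 35.9 and 28.6 CPM in WT and 35.96, 39.2, 36.4 and 35.4 in KO. In lymphoma it stood at 5.46, 1.10, 2.46, 4.57 and 5.74 CPM in the control and 11.5 and 15.4 in shTet2. Kif20b (chr19:34922358-34975731, + strand), which acts in the last steps of cytokinesis, stood at 55.2, 55.8 and 50.6 CPM in WT, 65.5, 70.8, 57.97 and 56.9 in KO, 15.4, 19.7, 19.8, 24.4 and 24.2 in control lymphoma and 31.05 and 36.1 in shTet2 lymphoma. Its groups were closer together than those of Kif14, and no shTet2 library overlapped a control.

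**Figure D2:**
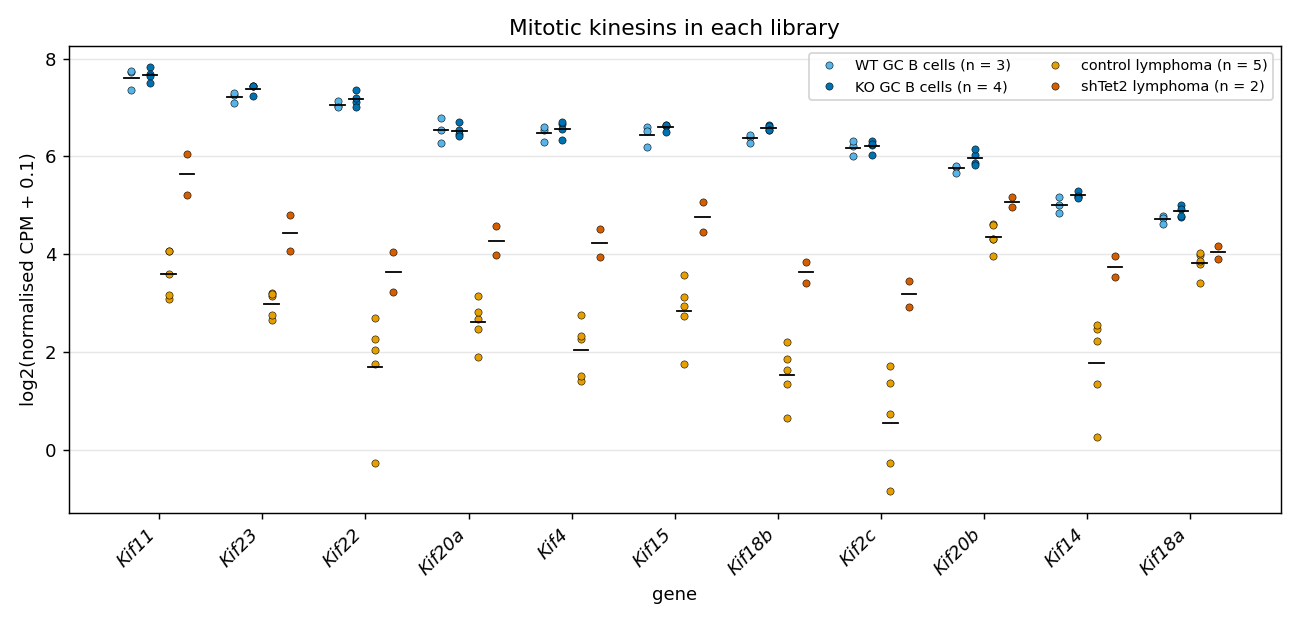
Level of the 11 detected mitotic kinesins in each library, as log2 of normalised CPM plus 0.1. Points are libraries of WT (n = 3), KO (n = 4), control lymphoma (n = 5) and shTet2 lymphoma (n = 2), bars are means of the plotted values. Points of shTet2 lie between the control lymphoma and the GC B-cell points for every gene except Kif18a, where they overlap the controls.

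From WT GC B cells to control lymphoma, Kif2c was 42.1-fold lower (log2 -5.40, SE 0.27), Kif22 32.2-fold (-5.01, SE 0.23) and Kif18b 26.6-fold (-4.73, SE 0.15). Kif4 (-4.34), Kif23 (-4.21), Kif11 (-3.94), Kif20a (-3.83), Kif15 (-3.44) and Kif14 (-2.996) followed on the log2 scale. The shallowest falls were those of Kif20b (-1.36, SE 0.12) and Kif18a (-0.91, SE 0.12). Adjusted p-values of the 11 genes in edgeR ranged from 9.22e-16 to 6.96e-07. The 20 spindle and cytokinesis partners on a list fixed for this work also fell, 20 of 20, with a median of -3.82. They included Plk1, the polo-like mitotic kinase (-5.43, SE 0.13), Incenp (-3.63, SE 0.12) and Aurkb (-4.40, SE 0.15), which are both parts of the chromosomal passenger complex. All 12 proliferation markers were lower (median -4.14), as were all 6 GC B-cell markers tested (median -5.75), against 40.4% of all genes. Their part in the kinesin difference was not tested.

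The comparison of shTet2 with control lymphoma asks what knock-down of Tet2 does in the lymphoma. Most mitotic kinesins were called higher and no kinesin was called lower. Of 11 mitotic kinesins tested, 8 were higher and 0 lower, against a background of 1.84% of 12797 genes called higher and 0.742% called lower (2.58% in all). The median log2 difference of the 11 was 1.72 (0.21 to 2.37) beside -0.00 for all genes. Groups did not overlap for 10 of the 11, all with shTet2 above, a state found upward in 12.5% and downward in 8.52% of genes tested. Of 10 transport kinesins, 0 were called, with a median of -0.08, and of 4 other kinesins, 0 were called, with a median of -0.03. In these classes 2 and 0 genes had an unadjusted p under 0.05, and DESeq2 called 0 in either.

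Kif2c rose by a log2 difference of 2.37 (SE 0.50, 5.18-fold), Kif4 by 2.08 (SE 0.29, 4.22-fold), Kif11 by 1.997 (SE 0.30, 3.99-fold) and Kif18b by 1.97 (SE 0.28, 3.93-fold). Kif15 (1.78, SE 0.30), Kif14 (1.72, SE 0.37), Kif20a (1.58, SE 0.24) and Kif23 (1.45, SE 0.21) were also called. In edgeR their adjusted p-values lay between 0.00547 (Kif18b) and 0.0391 (Kif14 and Kif2c). Kif22 had a difference of 1.63 (SE 0.41, adjusted p = 0.0770), Kif20b of 0.67 (SE 0.16, adjusted p = 0.0520) and Kif18a of 0.21 (SE 0.18, adjusted p = 0.543), which edgeR did not call. An unadjusted p under 0.05 was reached by 10 of the 11, and DESeq2 called 10.

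The call depended on single libraries. The shTet2 library of replicate 2 was the higher of the pair for 11 of 11 mitotic kinesins. Without it 4 were called higher, and without control replicate 1 also 4, each time Kif4, Kif18b, Kif20a and Kif23, which edgeR called in every fit that left out 1 library. Without shTet2 replicate 2, Kif11 had a log2 difference of 1.51, Kif14 1.497, Kif15 1.44 and Kif2c 2.09 (adjusted p = 0.0752, 0.224, 0.125 and 0.230 in edgeR). Kif11, Kif14, Kif15 and Kif2c had 1.98, 1.84, 1.77 and 2.34 without control replicate 1 (edgeR adjusted p = 0.0613, 0.0712, 0.0665 and 0.106). Without control replicate 3, edgeR did not call Kif14 (1.55, adjusted p = 0.0825) or Kif15 (1.71, adjusted p = 0.0656). Without control replicate 4 it did not call Kif14 (1.79, adjusted p = 0.0789) or Kif2c (2.57, adjusted p = 0.0621), nor Kif2c without control replicate 2 (2.28, adjusted p = 0.0977). With shTet2 replicate 1 left out, 10 were called. Within the control lymphoma, replicate 2 was lowest for 8 of 11 mitotic kinesins and replicate 5 highest for 6 of 11. The structural RNA share, which did not overlap between the groups, moved with the result. With those rows removed before scaling, 9 mitotic kinesins were called higher.

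The partners of the mitotic kinesins rose with them. The counts called below stand beside 1.84% of all 12797 genes tested called higher and 0.742% lower. Of 20 spindle and cytokinesis genes, 17 were higher and 0 lower (median 1.64). Among them were Cenpf, a kinetochore protein (1.67, SE 0.19), Plk1 (1.98, SE 0.25) and Kntc1, a checkpoint protein of the kinetochore (1.99, SE 0.25). Of 12 proliferation markers 9 were higher (median 1.73), with summed levels of 858 and 1283 CPM in shTet2 and 258 to 482 CPM in control lymphoma. Fas and S1pr2 were called higher among 6 GC B-cell markers (1.29 and 2.73), and Xbp1 and Prdm1 among 5 plasma cell markers (0.81 and 1.21). Myeloid markers, with none of 15 at 0 in either group, summed to 126 CPM in shTet2 replicate 1 and 406 CPM in replicate 2, against 160 to 291 CPM in the control, and edgeR called 0 of 12 tested, with 3 at an unadjusted p under 0.05 and 1 higher in DESeq2. The part of these in the kinesin result was not tested.

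In GC B cells, KO against WT asks the same of the knockout. No mitotic kinesin was called: 0 of 11 higher and 0 lower in edgeR, 0 with an unadjusted p under 0.05, and 0 in DESeq2. The background was 6.49% of 13600 genes, 1.92% higher and 4.57% lower. Log2 differences ran from -0.06 (Kif20a) to 0.17 (Kif20b), with a median of 0.11 beside 0.01 for all genes and SE values of 0.08 to 0.11. Kif18b and Kif20b lay higher in KO without overlap, as did 11.9% of genes tested, but their differences of 0.16 (SE 0.08) and 0.17 (SE 0.09) did not pass. No mitotic kinesin lay wholly lower, as 8.3% of genes did. KO replicate 5 was the lowest KO library for 9 of 11 mitotic kinesins and WT replicate 4 the lowest WT library for 11 of 11. Among 20 spindle partners and 12 proliferation markers, edgeR called 0, with medians of 0.08 and 0.08, 3 and 2 had an unadjusted p under 0.05, and DESeq2 called 0.

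Whether the effects differ was tested directly, as the shTet2 effect minus the KO effect in the model of all groups. It was higher for 9 of 11 mitotic kinesins and lower for 0, against 3.39% and 1.61% of 15441 genes (4.99% in all), with a median of 1.59. Kif2c had the widest difference between effects, 2.38 (SE 0.41), followed by Kif4 (2.01, SE 0.29), Kif11 (1.96, SE 0.32), Kif18b (1.77, SE 0.22), Kif15 (1.61, SE 0.29), Kif20a (1.59, SE 0.25), Kif14 (1.54, SE 0.32), Kif22 (1.497, SE 0.35) and Kif23 (1.29, SE 0.21). Adjusted p-values in edgeR ran from 0.000114 (Kif18b) to 0.0237 (Kif22). For Kif20b (0.46, SE 0.18) and Kif18a (0.08, SE 0.19) the difference between effects did not pass. Without shTet2 replicate 2, edgeR called neither Kif14 (1.29, adjusted p = 0.0772) nor Kif22 (1.01, adjusted p = 0.187). Kif22 was also not called without WT replicate 3 (1.46, edgeR adjusted p = 0.0556) or control replicate 3 (1.38, edgeR adjusted p = 0.0600), nor with no filter on low counts (1.49, edgeR adjusted p = 0.0704). Without shTet2 replicate 2 the value of Kif23 was 0.853, still called. Among the spindle partners 18 of 20 were higher (median 1.54), and those with the smallest p were Plk1 (1.92, SE 0.20), Aurkb (1.60, SE 0.22) and Cenpf (1.68, SE 0.23). This contrast, the shTet2 contrast and the contrast with WT GC B cells share the control lymphoma libraries. The difference between effects also sets a hairpin in lymphoma against a knockout in GC B cells. The kind of perturbation, the cell type and the set of libraries, with its depth and structural RNA share, cannot be told apart in it.

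**Figure D3:**
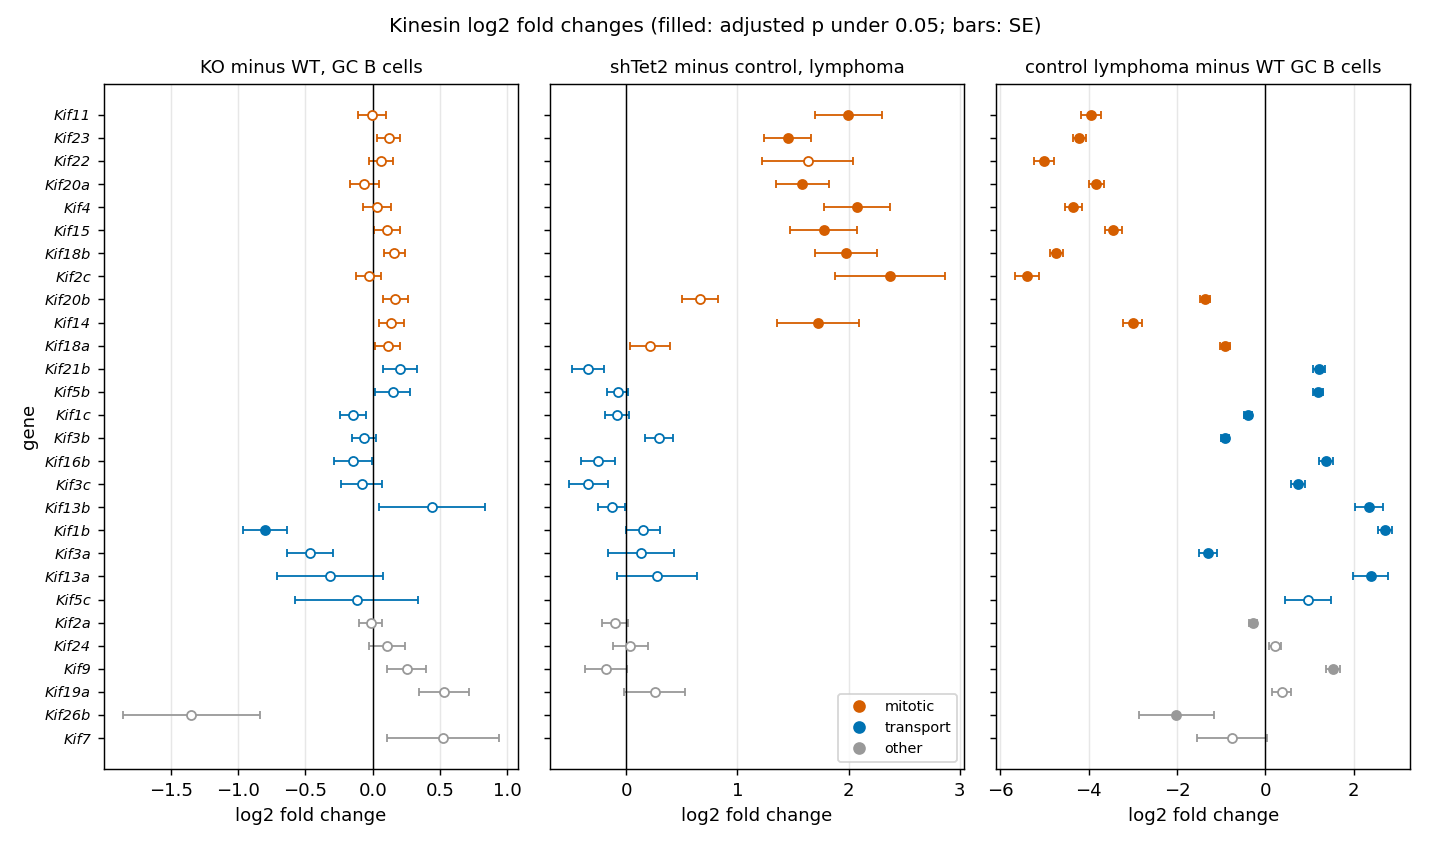
Log2 fold changes (x axes, which differ in range) of 28 kinesin genes (y axis) in KO minus WT, shTet2 minus control lymphoma, and control lymphoma minus WT GC B cells. Points are edgeR estimates, bars are 1 SE, filled points have an adjusted p under 0.05, and colours give the class. In the middle panel the 8 filled points are all mitotic kinesins, and in the right panel all 11 mitotic kinesins lie left of 0.

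Transport kinesins were led by Kif21b and Kif5b in every group. Kif21b (chr1:136131389-136177998, + strand), a motor that also restrains microtubule growth, stood at 142, 141 and 125 CPM in WT and 122, 190.03, 164 and 172 in KO. In lymphoma it stood at 285, 293, 319, 309 and 372 CPM in the control and 299 and 205 in shTet2. Every lymphoma library lay above every GC B-cell library. The log2 difference of control lymphoma from WT was 1.22 (SE 0.14). For shTet2 against control it was -0.34 (SE 0.14), which did not pass with both libraries. With shTet2 replicate 1 left out, edgeR called Kif21b lower (-0.65, adjusted p = 0.0026), Kif16b lower (-0.61, adjusted p = 0.0103) and Kif1b higher (0.41, adjusted p = 0.0381).

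Among the heavy chains of conventional kinesin, Kif5b, the form found in most tissues, stood at 69.7, 66.2 and 51.7 CPM in WT and 58.1, 85.8, 72.8 and 70.5 in KO. It stood at 142, 136, 144, 135 and 153 CPM in control and 145 and 129 in shTet2 lymphoma. Control lymphoma was higher than WT by 1.18 (SE 0.12), with no overlap. Kif5c, a form best known from neurons, was near the limit of detection, at 0.365, 0.126 and 0.303 CPM in WT and 0.781, 0, 0.546, 0.653 and 0.401 in control lymphoma (0.97, SE 0.52, not called). Kif5a, the other neuronal form, had under 100 counts in all.

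Of the motors tied to cilia, the 2 subunits of the heterotrimeric motor were lower in control lymphoma than in WT. Kif3a (chr11:53567379-53601967, + strand) stood at 5.76, 5.27 and 7.34 CPM in WT, 4.46, 4.85, 5.38 and 3.64 in KO, 2.93, 2.19, 2.55, 2.48 and 2.14 in control and 2.37 and 3.15 in shTet2 lymphoma (control minus WT -1.31, SE 0.20). Kif3b (chr2:153291413-153333390, + strand), its partner, stood at 47.8, 47.99 and 40.7 CPM in WT, 43.3, 49.4, 43.7 and 43.7 in KO, 24.4, 23.4, 21.9, 27.5 and 23.5 in control and 29.3 and 30.9 in shTet2 lymphoma (control minus WT -0.91, SE 0.09). Both shTet2 libraries lay above all controls for Kif3b, yet the difference of 0.30 (SE 0.12) was not called. Kif3c (chr12:3365132-3406494, + strand), which can pair with Kif3a in place of Kif3b, went the other way. It stood at 11.6, 10.5 and 7.72 CPM in WT, 8.66, 9.70, 11.6 and 8.97 in KO, 17.4, 12.1, 16.8, 16.8 and 18.96 in control and 14.9 and 11.7 in shTet2 lymphoma (control minus WT 0.75, SE 0.16). Kifap3, which joins Kif3a and Kif3b to cargo, fell as they did (-2.15, SE 0.16, from 17.4 to 3.80 CPM).

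Motors of vesicles and endosomes showed the largest rises. Kif1b (chr4:149176319-149307693, - strand), which carries mitochondria and synaptic vesicle precursors, stood at 8.63, 8.50 and 5.90 CPM in WT and 4.13, 5.45, 4.29 and 4.36 in KO. In lymphoma it stood at 49.8, 53.7, 50.8, 53.6 and 42.6 CPM in the control and 45.02 and 67.8 in shTet2. Every lymphoma library was above every GC B-cell library, and control exceeded WT by 2.70 (SE 0.16), or 6.497-fold. Kif13a (chr13:46749087-46929718, - strand), a motor of recycling endosomes, stood at 0.690, 0.632 and 0.956 CPM in WT, 0.503, 1.14, 0.570 and 0.305 in KO, 2.73, 3.65, 4.18, 5.74 and 3.20 in control and 2.94 and 6.93 in shTet2 lymphoma (control minus WT 2.38, SE 0.40). Kif13b (chr14:64652531-64806296, + strand), which binds the scaffold protein Dlg1, stood at 9.36, 10.8 and 6.22 CPM in WT, 5.95, 18.3, 12.8 and 12.3 in KO, 42.7, 37.6, 50.3, 45.2 and 46.3 in control and 45.4 and 37.4 in shTet2 lymphoma (control minus WT 2.35, SE 0.31). The KO libraries of Kif13b spread more widely than those of its neighbours, with replicate 2 the lowest. Kif16b (chr2:142617474-142901531, - strand), a motor of early endosomes, stood at 16.6, 17.3 and 11.7 CPM in WT, 12.3, 15.2, 16.5 and 12.9 in KO, 36.1, 35.8, 41.7, 37.5 and 44.2 in control and 40.3 and 26.2 in shTet2 lymphoma (control minus WT 1.37, SE 0.15). Kif1c (chr11:70700548-70731964, + strand), which moves vesicles and messenger RNA, differed little, at 47.3, 49.04 and 40.3 CPM in WT, 37.1, 44.4, 45.4 and 43.5 in KO, 33.2, 31.4, 34.7, 35.1 and 37.3 in control and 34.1 and 31.9 in shTet2 lymphoma (control minus WT -0.40, SE 0.09). Adjusted p-values of the 10 transport kinesins called between control lymphoma and WT ranged in edgeR from 5.55e-12 (Kif1b) to 0.000643 (Kif1c). Groups did not overlap for any of the 10, 7 of them higher and 3 lower, against 36% and 38.5% of genes tested. Genes listed as markers of other cells were called too, beside 40.2% of all genes higher and 40.4% lower. Of 14 myeloid markers, 7 were higher and 0 lower (summed 160 to 291 CPM, against 83.8 to 94.0 in WT). Of 10 T and NK markers, 9 were higher and 1, Lck, lower. Their sum was 26.3 to 55.6 CPM, against 106 to 135 in WT. Lck alone stood at 130, 132 and 104 CPM in WT, nearly all of the WT sum, so that sum does not describe the 9 higher markers. Higher and lower were 2 and 3 of 5 erythroid and platelet, 1 and 2 of 3 neuronal, and 2 and 0 of 3 stromal and endothelial markers. The 2 of the last list were Pecam1 and Cr2, which already stood at 63.6 to 73.0 and 178 to 262 CPM in WT GC B cells. Col1a1, Col1a2, Col3a1 and Pdgfrb of that list reached at most 0.364 CPM in either group, so the calls do not show stromal cells. The part of all these marker genes in the transport kinesin differences was not tested.

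**Figure D4:**
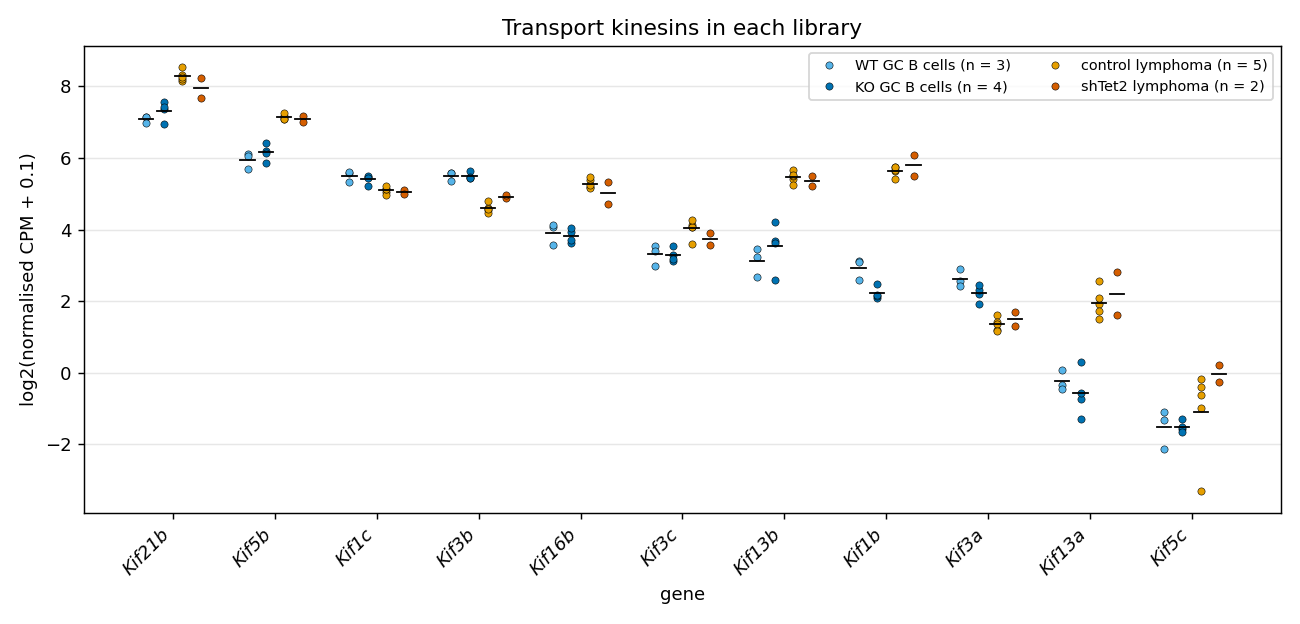
Level of 11 transport kinesins in each library, as log2 of normalised CPM plus 0.1. Points are libraries of WT (n = 3), KO (n = 4), control lymphoma (n = 5) and shTet2 lymphoma (n = 2), bars are means of the plotted values. Lymphoma points lie above the GC B-cell points for Kif21b, Kif5b, Kif16b, Kif13b, Kif1b, Kif13a and Kif3c and below them for Kif3a and Kif3b.

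Kif1b was the only member under the symbol pattern called between KO and WT, 1 of 29 tested and lower, against 6.49% of genes called. Its log2 difference was -0.80 (SE 0.16, adjusted p = 0.00727 in edgeR), with all 4 KO libraries below all 3 WT libraries, and it was lower in KO by 1.74-fold. Without WT replicate 1 it was -0.71 (edgeR adjusted p = 0.0501). Kif1b was also the only transport kinesin called for the difference between effects, 0.92 (SE 0.22, adjusted p = 0.0194 in edgeR), a call lost without WT replicate 1 (0.83, edgeR adjusted p = 0.0517), WT replicate 3 (0.85, edgeR adjusted p = 0.0603) or shTet2 replicate 2 (0.57, edgeR adjusted p = 0.259). Some markers of other cells moved the same way in KO and others did not. Of 5 T and NK markers tested, 1 was higher (Thy1, 2.51, SE 0.35) and 1 lower. EdgeR and DESeq2 called 0 of 5 erythroid and platelet, 6 plasma cell and 3 stromal and endothelial markers. In these lists 0, 2 and 1 had an unadjusted p under 0.05. Of 10 myeloid markers tested, 9 were lower, with summed levels of 49.98 to 51.9 CPM in KO and 83.8 to 94.0 CPM in WT and none of the 15 at 0 in either group. Map2, 1 of 3 neuronal markers tested, was lower (-1.59, SE 0.14), while Nefl, Rbfox3 and Snap25 were at 0 in both groups, and neuronal markers summed to 7.33 to 8.74 CPM in KO and 15.1 to 19.8 CPM in WT. Their part in the Kif1b difference was not tested. The remaining 11 transport kinesins had a KO difference between -0.47 (Kif3a, SE 0.17) and 0.44 (Kif13b, SE 0.39), and 2 of the 12 had an unadjusted p under 0.05. Without KO replicate 2 edgeR called 1 of them higher, Kif21b (0.36, adjusted p = 0.0410), and Kif21b was then also called lower for the difference between effects, as it was without shTet2 replicate 1 (-0.88).

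The other kinesins include motors of cilia and of the centriole. Kif9 (chr9:110476994-110525179, + strand), an axonemal motor, was higher in control lymphoma than in WT by 1.53 (SE 0.16). It stood at 3.86, 4.72 and 4.24 CPM in WT, 4.97, 5.43, 5.25 and 5.48 in KO, 14.2, 15.3, 11.8, 10.7 and 10.8 in control and 10.2 and 11.97 in shTet2 lymphoma, with no overlap between lymphoma and GC B cells. Ciliated cell markers summed to 3.65 to 7.57 CPM in control lymphoma and 8.07 to 12.98 CPM in WT, and Dnah5 was at 0 in the lymphoma groups. Of 4 such markers tested, 2 were higher and 1 lower, beside 40.2% and 40.4% of all genes. Their part in the Kif9 difference was not tested. Kif2a (chr13:106958996-107022126, - strand), a microtubule depolymerase of spindle poles and neurites, stood at 51.1, 49.8 and 43.6 CPM in WT, 52.04, 48.9, 47.5 and 49.3 in KO, 37.7, 40.6, 44.6, 36.5 and 39.7 in control and 41.02 and 34.1 in shTet2 lymphoma. The groups overlapped, and the call of -0.27 (SE 0.09, adjusted p = 0.0100 in edgeR) for control against WT was lost with median-of-ratios scaling (-0.14, edgeR adjusted p = 0.183). That call was also lost without WT replicate 1 (-0.21, edgeR adjusted p = 0.0787) or WT replicate 3 (-0.23, edgeR adjusted p = 0.0606). Kif24, which restrains the growth of cilia at the centriole, stood at 13.6, 15.5 and 10.8 CPM in WT, 12.3, 15.4, 15.4 and 16.1 in KO, 14.6, 16.1, 15.4, 14.4 and 16.8 in control and 18.5 and 13.5 in shTet2 lymphoma and was called by edgeR in none of the 4 comparisons. Kif19a, which trims microtubules at cilium tips, and Kif7, a regulator of Hedgehog signalling, were called by edgeR in none either. Between KO and WT, Kif19a (0.53, SE 0.19) and Kif9 (0.25, SE 0.15) lay higher in KO without overlap but were not called. They were 2 of 6 other kinesins tested, beside 11.9% of all genes tested. For control lymphoma against WT, Kif24 (0.22) and Kif19a (0.37) were called higher with median-of-ratios scaling and in DESeq2, and Kif24 also without WT replicate 3. Kif26b, an atypical member with at most 0.568 CPM in any library, was called lower in control lymphoma than in WT (-2.01, SE 0.85, adjusted p = 0.0362 in edgeR), with overlapping groups. Its call was lost with median-of-ratios scaling (-1.88, edgeR adjusted p = 0.0511) and without control replicate 1 (-1.80, edgeR adjusted p = 0.0710), 2 (-1.92, 0.0555), 3 (-2.06, 0.0714) or 5 (-1.69, 0.0875), and its value was -3.17 without control replicate 4. In DESeq2, 3 other kinesins (Kif9, Kif19a and Kif24) were higher in control lymphoma than in WT and 0 lower.

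Mitotic motors outside the symbol pattern were read beside the members. Cenpe, which carries chromosomes to the spindle equator, stood at 168, 173 and 122 CPM in WT, 164, 182, 177 and 151 in KO, 15.8, 13.5, 14.2, 17.2 and 20.8 in control and 48.5 and 54.2 in shTet2 lymphoma. It rose in shTet2 by 1.62 (SE 0.15, adjusted p = 0.000571 in edgeR), was lower in control lymphoma than in WT (-3.22, SE 0.13) and was not called in KO (0.08, SE 0.11). Kifc1, a motor that moves to microtubule minus ends and focuses spindle poles, stood at 47.04, 43.9 and 42.6 CPM in WT, 52.5, 50.4, 45.9 and 50.1 in KO, 0.390, 1.10, 0.364, 1.17 and 1.47 in control and 3.35 and 5.77 in shTet2 lymphoma. Its shTet2 difference was 2.34 (SE 0.45, adjusted p = 0.0204 in edgeR), its difference between control lymphoma and WT -5.69 (SE 0.22) and its KO difference 0.11 (SE 0.08, not called).

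Light chains and cargo adaptors, which link transport kinesins to their loads, were called neither in shTet2 (0 of 15, 2 with an unadjusted p under 0.05, 1 lower in DESeq2) nor in KO (0 of 17, 3 with an unadjusted p under 0.05, 0 in DESeq2). Between control lymphoma and WT, 5 were higher and 9 lower of 17, in a contrast that called 40.2% of all genes higher and 40.4% lower. Spag9, a scaffold that binds kinesin light chains, was higher (1.74, SE 0.12), while Rhot2, a mitochondrial adaptor, was lower (-1.52, SE 0.12). Dynein, the motor that runs opposite to most kinesins, and its cofactor dynactin had 3 genes higher and 13 lower of 19, beside the same shares. Those lower included Nde1 (-1.71, SE 0.10), Dynlt3 (-1.40, SE 0.09) and Dynll1 (-1.76, SE 0.12). In KO against WT, 1 of 19 was lower, Bicd2, a dynein adaptor (-0.46, SE 0.10), against 4.57% of all genes. In shTet2 against control edgeR called 0 of 19, with 2 at an unadjusted p under 0.05 and 1 lower in DESeq2. For the difference between effects 1 adaptor of 17, Jakmip1, was lower (-0.48, SE 0.13), against 1.61% of all genes.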

How the data were processed

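RNA was measured in 14 mouse libraries. Libraries were stranded mRNA preparations (TruSeq) from Trizol-extracted RNA, per the labels' protocols, and the submitters' processing notes name STAR 2.3.0e and GRCm38.p3. The deposited values are raw read counts per gene, which the authors made with featureCounts 1.5.1 over GENCODE exons on GRCm38 with no strand option, per the file headers. How the GC B cells were purified is not given in the sources used here. Members and gene lists were chosen with earlier results of these data known, so they are not independent support.

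From the counts, edgeR 4.0.16 (TMM scaling, filterByExpr, robust quasi-likelihood test) was fitted to all genes of each table, with Benjamini-Hochberg adjustment and a threshold of 0.05. One model of all 4 groups gave the difference between effects and control lymphoma against WT. Values in every library are given for members called with no overlap between groups and for the 3 with the highest length-scaled level per class. From each partner list, up to 3 called genes with the smallest p were named. Marker genes, and members named for a lost call, were chosen after their values were seen. The scripts were tested on simulated data. Alternatives were median-of-ratios scaling, DESeq2 1.42.0, no filter on low counts, removal of structural RNA rows, leaving out each library, the replicate number as a block, other model samples, and other class definitions. Depth was 6691167 to 30434184 counts per library. No pair of replicates agreed within sampling noise.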

Additional observations from a re-analysis of the deposited data

Results flagged for a closer look

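A single KO library stood apart from the other 3 in 3 of 56 combinations of member and group examined, and chance alone marks about 1 in 20. Kif15 was at 90.7 CPM in KO replicate 5, the next library being at 98.8 and the highest at 100.4 CPM. Kif23 was at 149.6 CPM in KO replicate 5, with the next at 172 and the highest at 173 CPM. Kif3b was at 49.4 CPM in KO replicate 3, with the next at 43.7 and the lowest at 43.3 CPM.

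The shTet2 effect exceeded the KO effect by a tested difference for 10 members. The kind of perturbation, the cell type and the set of libraries cannot be told apart in this contrast. On the log2 scale the difference was 2.38 for Kif2c, 2.01 for Kif4, 1.96 for Kif11, 1.77 for Kif18b and 1.61 for Kif15. It was 1.59 for Kif20a, 1.54 for Kif14, 1.497 for Kif22, 1.29 for Kif23 and 0.92 for Kif1b, the only transport kinesin among them.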

How the results depend on the processing

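Most results kept their direction and call: of the values recomputed for whole classes, 397 stayed within the limits set for a change, 32 moved and 1 reversed, and of those for single genes 703 kept their call and 41 lost it. Fits with a lone shTet2 library assume that it varies like the other groups. The cause of the changes below was not tested.

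With the replicate number as a block, the KO transport median was 0.10, against -0.13, with 1 transport kinesin called higher and 0 lower, and 0 mitotic kinesins were called higher in shTet2, against 8. That fit keeps 1 residual degree of freedom, so lost calls say nothing about the size of the effects: Kif11 was 2.19, Kif2c 2.80 and Kif4 2.24. Same-numbered libraries shared only a number (correlations of their deviations 0.029, -0.032, -0.039 and -0.009). Leaving out single libraries gave 0 to 1 transport kinesins called higher and 0 to 1 lower in KO. In shTet2 it gave 4 to 10 mitotic kinesins higher, and 0 to 1 transport kinesins higher and 0 to 2 lower. For the difference between effects the mitotic median ran from 1.25 to 1.86, and transport kinesins called ran from 0 to 1 higher and 0 to 1 lower. The transport median of control lymphoma against WT ran from 0.98 to 1.29, and was 1.02 with structural RNA rows removed.

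Without scaling by length, mitotic shares were 71.3% in KO, 71.4% in WT, 26.1% in shTet2 and 10.3% in control lymphoma, and transport shares 23.9, 23.8, 66.3 and 81.1%. With Kif2a counted as mitotic, that share was 85.4% in WT and 21.6% in control lymphoma. Leaving Kif21a and Kif21b out of the transport class gave 9.10% in KO, 9.61% in WT, 35.5% in shTet2 and 45.8% in control lymphoma. With 1 shTet2 library left out, the shares of that group were those of the other: 31.8 to 45.8% mitotic and 46.7 to 59.4% transport.

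Over all genes, shTet2 against control gave 235 higher and 95 lower. This became 356 and 243 in DESeq2, 521 and 261 with no filter, 662 and 178 in 1 model of all groups, and 3 and 1 with the block. It was 1303 and 1178 without shTet2 replicate 1, 102 and 28 without replicate 2, and 82 to 183 higher and 18 to 81 lower without single controls. KO against WT gave 261 and 622, against 439 and 809 in DESeq2, 504 and 861 with no filter, 274 and 388 in 1 model and 217 and 353 with the block. The difference between effects gave 523 and 248, against 709 and 457 in DESeq2, 1200 and 801 without shTet2 replicate 1 and 219 and 64 without replicate 2. The 2101 kinesin counts of the shallowest control library limit what can be seen for the lowest members.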

Other observations

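Stard9, a kinesin outside the symbol pattern that acts at the centrosome in mitosis, was higher in KO than in WT. It stood at 4.71, 3.94 and 4.20 CPM in WT and 5.80, 10.1, 8.99 and 8.81 CPM in KO, without overlap (log2 0.92, SE 0.18, adjusted p = 0.00493 in edgeR). In shTet2 against control lymphoma its difference was 0.74 (SE 0.22), which was not called. Kifc5b was lower in control lymphoma than in WT (-3.88, SE 0.22). Kifc3 was called higher there (1.16, SE 0.41) with overlapping groups, and Kifc2 was called in none of the 4 comparisons.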
